A study of Arabidopsis thaliana with 16 samples.

Results

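Zone 3 of the Arabidopsis thaliana seedling root is the stretch between the end of the meristem and the first root hairs, where cells lengthen before they mature. Its iron response was read from 4 of the 16 arrays of a series that divided the root into 4 zones: the 2 arrays whose titles name zone 3 on -Fe medium, and the 2 whose titles name zone 3 on standard medium. All plants were of the Columbia ecotype, grew for 5 days on standard medium before transfer, and gave pools of about 15 roots per replicate. On -Fe medium 0.3 mM Ferrozine, a chelator of ferrous iron, stood in place of the iron salt, and standard medium held Fe(III)-EDTA. Zone 3 was cut about 200 to 300 µm above the upper end of zone 2. The labels disagree on time: the sample descriptions give 24 h after transfer for -Fe roots and 1 h for standard roots, whereas the protocol gives 24 h for both, so if the descriptions are right, medium and time cannot be told apart. The labels do not say whether replicates are separate cultures. The p-values therefore cover only the spread between pools of the same group, taken over all 16 arrays, which may be technical.

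Plants short of iron switch on a regulatory cascade of basic helix-loop-helix (bHLH) transcription factors, which raises genes for iron reduction, import and mobilisation. Roots of Arabidopsis also make and release coumarins, phenolic compounds that help to dissolve iron. Iron is a cofactor of heme and iron-sulfur enzymes, and transcripts of some of these enzymes are known to fall when iron is scarce.

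Among markers of root hairs and of dividing cells, EXPA7 and AUR1 had values in zone 3 outside the range of both neighbouring zones. The other measured markers of these lists overlapped with a neighbouring zone. EXPA18 read 3270 and 3145 on standard medium in zone 3, against 3156 on standard replicate 2 of zone 4. AUR2 read 89.3 and 210 on -Fe medium and 135 and 64.7 on standard medium in zone 3, against 102 to 273 in zone 2. The root hair expansin gene EXPA7 had intensities of 4131 and 5191 in zone 3 on -Fe medium, against 3218 and 3194 on standard medium, while the 4 zone 2 arrays lay between 27.9 and 396.7 and the 4 zone 4 arrays between 1197 and 2761. The mitotic kinase gene AUR1 had 107.8 and 132.9 on -Fe medium and 149.9 and 115.2 on standard medium in zone 3, below every array of zone 1 (at least 895.7), zone 2 (at least 293.6) and zone 4 (at least 175.8). The root cap list was represented by AT1G65570, which read 3.2 and 12.9 on -Fe medium and 3.0 and 7.4 on standard medium in zone 3, against at least 1132 on every zone 1 array. Intensity here is the deposited signal, in arbitrary units, and levels of different probe sets are not compared.

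The 2 standard arrays of zone 3 differed more than the arrays of any other group. Over 16505 probe sets, replicate log2 differences had an SD of 0.56 for zone 3 on -Fe medium and 0.83 for zone 3 on standard medium, and of 0.50 to 0.66 in the 6 groups of the other zones. Probe sets whose replicates differed by more than 1 log2 unit made up 7.71% on -Fe medium and 19.0% on standard medium in zone 3, against 5.07% to 9.33% in the other zones. The standard arrays also differed in 2 sets of 50 probe sets picked for a large change along the root. Over the other probe sets this was not tested, and not every gene went the same way. GAT1_2.1 was higher in zone 4 than in zone 2 by 1.79 log2 units on standard medium. In zone 3 it read 338 on standard replicate 1 and 3943 on standard replicate 2. Replicate 2 of this gene also read above replicate 1 in every other group, for example 1372 against 535 in zone 4 on standard medium. Over 50 probe sets picked on the zone 2 and zone 4 arrays for being higher in zone 4, the zone 3 arrays lay 67.9% and 73.9% of the way up from the zone 2 mean to the zone 4 mean on -Fe medium, and 86.5% and 46.4% on standard medium. Over 50 probe sets higher in zone 2, the zone 3 arrays lay 70.8% and 73.1% of the way on -Fe medium, and 75.3% and 47.9% on standard medium. Standard replicate 1 exceeded replicate 2 in 50 of 50 of the first set and in 1 of 50 of the second. Both -Fe arrays thus lay between the standard arrays on each measure, and the zone 2 standard arrays were also apart on the first, at 25.4% and -12.5%. Ratios of 3′ to 5′ signal, a sign of RNA integrity, were 7.26 and 8.51 on -Fe medium and 6.95 and 7.43 on standard medium for actin, within the range of the 12 other arrays. For GAPDH they were 1.40 and 1.71 on -Fe medium and 1.64 and 2.16 on standard medium, and the value of -Fe replicate 1 lay below the 1.48 to 2.17 of the other zones. The part of RNA integrity in the results was not tested.

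**Figure D1:**
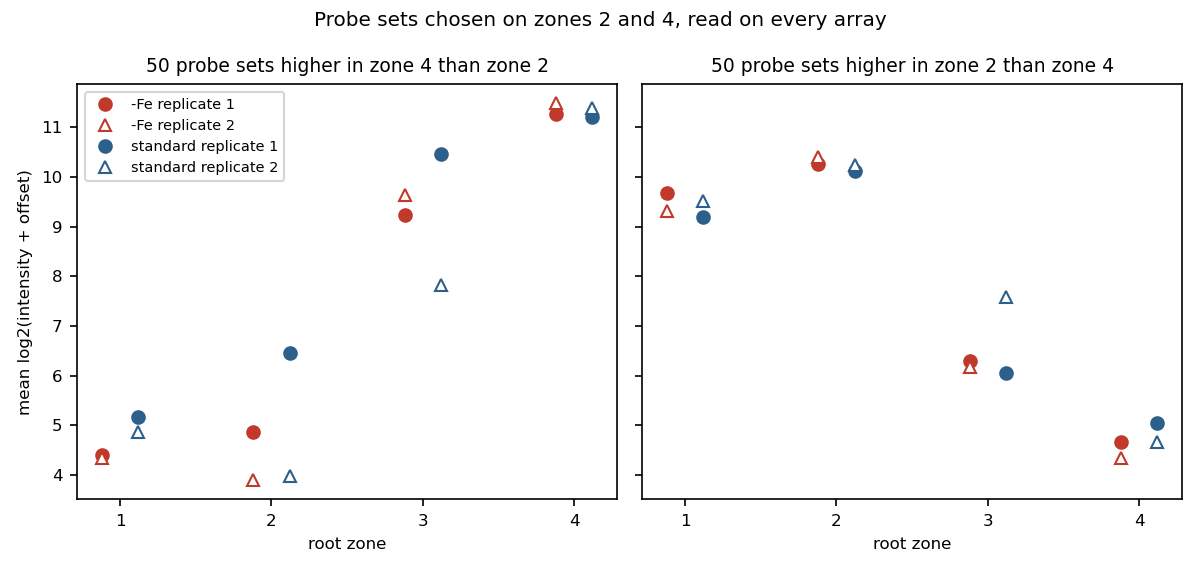
Mean log2(intensity + offset) of 50 probe sets higher in zone 4 (left) and 50 higher in zone 2 (right), on each of the 16 arrays by root zone; -Fe arrays are red and left, standard arrays blue and right, circles are replicate 1 and triangles replicate 2. In zone 3 the -Fe arrays read 9.24 and 9.63 in the left panel, between the standard arrays at 10.46 and 7.83.

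Between -Fe and standard medium 48 of 16505 probe sets differed in zone 3 (0.291%), by limma with Benjamini-Hochberg adjusted p under 0.05. Of these, 37 were higher on -Fe medium (0.224%) and 11 lower (0.0666%). None of the 48 overlapped between the -Fe and standard arrays, which their choice by this same contrast largely fixes. The share over all probe sets is not given here. A single gene was annotated for 25 of the 48, 18 higher and 7 lower, and these stand for 24 genes. At an unadjusted p under 0.05 there were 1128 probe sets, and the median log2 difference over all was -0.06. The fit takes 1 spread per probe set for all 8 groups, although the zone 3 standard pair differed most. With array weights, lowest for the zone 3 standard arrays at 0.45 each, 23 probe sets were called, 19 higher and 4 lower. Every zone 3 difference below is log2(intensity + 7.73) on -Fe medium minus standard medium, with the standard error (SE) of the fit, and it understates the change of dim probe sets. In whole-tissue RNA, fewer cells of a type and less RNA per cell cannot be told apart.

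Without standard replicate 1 the count was 125 (0.757%), with 97 higher (0.588%) and 28 lower (0.17%), and without standard replicate 2 it was 53 (0.321%), with 27 higher (0.164%) and 26 lower (0.158%). Of the 48 probe sets, 40 passed without the first and 26 without the second, and 24 passed both times, 20 of them higher. Without -Fe replicate 1 there were 23 calls (15 higher, 8 lower), of which 19 were among the 48, and without -Fe replicate 2 there were 23 (20 higher, 3 lower), of which 23 were among the 48. In all, 16 probe sets passed without each of the 4 zone 3 arrays in turn, 14 of them higher.

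Among the regulators of the iron response, 4 of 13 measured genes rose and none fell, against 0.224% of all probe sets called higher. The list of regulators was drawn up with earlier results of these arrays known, so its direction is not independent evidence. BHLH101, which encodes a factor of that bHLH cascade, read 359 and 658 on -Fe medium and 2.6 and 2.6 on standard medium. Both standard values lay under the offset, and the log2 difference was 5.58 ± 0.50 (limma adjusted p = 0.000298). PYE (POPEYE), a bHLH factor that acts in roots under iron deficiency, read 268 and 297 on -Fe medium and 82.2 and 38.0 on standard medium, a rise of 2.18 ± 0.33 (limma adjusted p = 0.0129). The PYE call was lost without -Fe replicate 1, -Fe replicate 2 or standard replicate 2 (limma adjusted p = 0.0931, 0.179 and 0.063). AT1G47400 read 484 and 304 on -Fe medium and 16.6 and 11.2 on standard medium, a rise of 4.19 ± 0.34 (limma adjusted p = 0.000213). AT1G74770 rose on both of its probe sets. The brighter one read 1665 and 1721 on -Fe medium and 303 and 54.3 on standard medium (3.61 ± 0.51, limma adjusted p = 0.00691), and its call was lost without either -Fe array (limma adjusted p = 0.0741 and 0.0899). The dimmer one read 205 and 156 on -Fe medium and 2.1 and 5.3 on standard medium (4.04 ± 0.70, limma adjusted p = 0.0323), and it lost its call without any one of the 4 zone 3 arrays. Other bHLH genes of the list did not pass: ILR3 read 604 and 862 on -Fe medium and 821 and 704 on standard medium, and bHLH104 read 910 and 776 on -Fe medium and 967 and 658 on standard medium. The median of the list was 0.31, against -0.06 over all probe sets.

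In a further list of iron-responsive loci, 7 of 9 measured genes rose and none fell, at a median of 3.78. It too was drawn up with earlier results of these arrays known, so its direction is not independent evidence. AT5G05250 read 2465 and 2226 on -Fe medium and 66.9 and 19.5 on standard medium (5.70 ± 0.61, limma adjusted p = 0.000827). This was the largest rise of a named gene at the offset used. With the offset halved, BHLH101 rose by more, at 6.25 against 5.85 for AT5G05250. AT1G73120 read 778 and 443 on -Fe medium and 10.3 and 19.1 on standard medium (4.76 ± 0.44, limma adjusted p = 0.000316). AT3G61930 was less even between replicates, with 429 and 131 on -Fe medium against 3.8 and 6.6 on standard medium (4.25 ± 0.56). AT5G38820 read 2074 and 1908 on -Fe medium and 93.1 and 146 on standard medium (4.00 ± 0.33). AT3G07720 read 7778 and 6770 on -Fe medium and 659 and 414 on standard medium (3.78 ± 0.41). AT3G56360 (2.85 ± 0.37) and AT3G06890 (2.45 ± 0.26) also rose. All 7 kept their call without either standard array, but AT3G61930 lost it without -Fe replicate 1 and AT3G56360 without -Fe replicate 2 (limma adjusted p = 0.057 and 0.0569). AT2G20030, with 653 and 670 on -Fe medium and 208 and 155 on standard medium, did not pass (1.84 ± 0.42, limma adjusted p = 0.177).

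**Figure D2:**
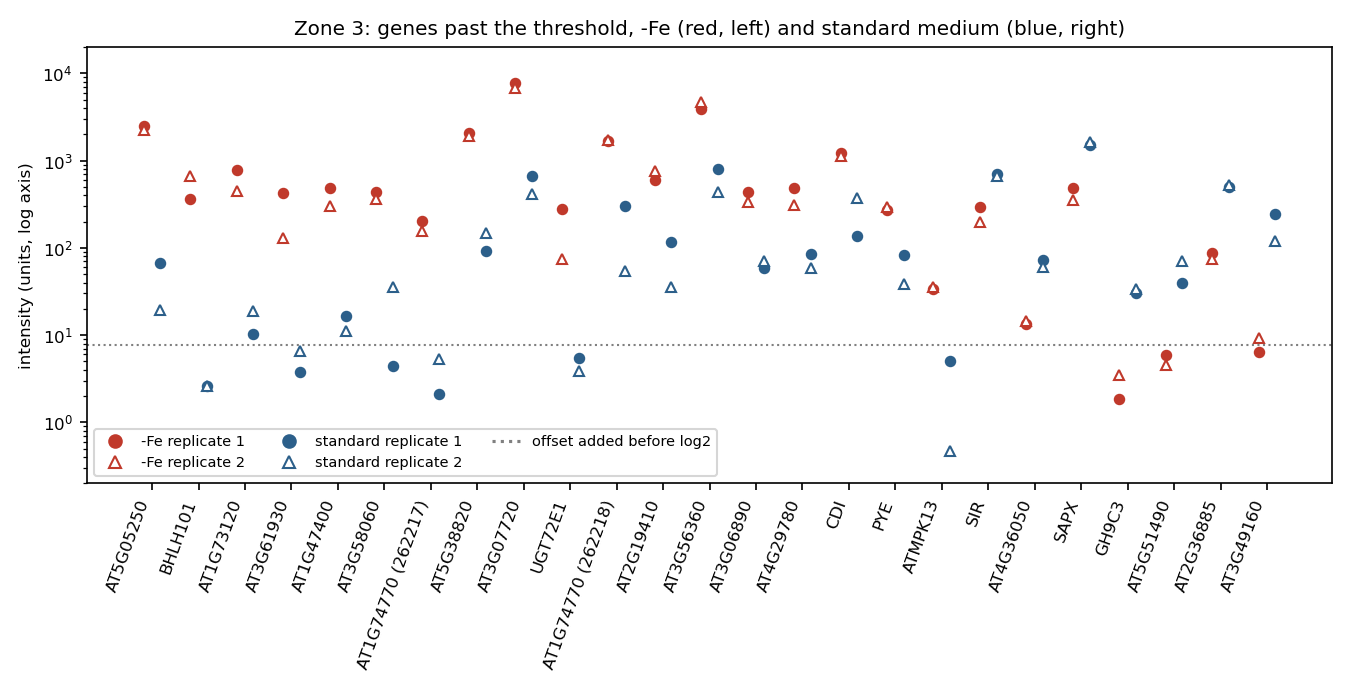
Intensity on a log axis of the 25 single-gene probe sets past the threshold on the 4 zone 3 arrays, ordered by log2 difference; -Fe arrays are red and left, standard arrays blue and right, and the dotted line is the offset of 7.73. No gene overlaps between media, which their choice largely fixes. Several standard values of rising genes lie under the offset, such as 2.6 and 2.6 for BHLH101.

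Of 3 measured iron transport genes 1 rose: AT3G58060 read 432 and 362 on -Fe medium and 4.5 and 35.1 on standard medium (4.14 ± 0.52, limma adjusted p = 0.00294), a call lost without -Fe replicate 1 (limma adjusted p = 0.0515). The other two had differences of 0.29 and -0.25. Of 9 coumarin and phenylpropanoid genes 1 rose, UGT72E1, a glycosyltransferase of phenylpropanoids, with 279 and 74.4 on -Fe medium and 5.4 and 3.9 on standard medium (3.63 ± 0.62, limma adjusted p = 0.0289). Its call was lost without -Fe replicate 1 (limma adjusted p = 0.219) and without either standard array (limma adjusted p = 0.059 and 0.0981). AT3G13610, annotated as F6'H1, the enzyme that opens the route to the coumarin scopoletin, overlapped between media, with 1619 and 902 on -Fe medium and 1102 and 295 on standard medium. AT3G12900, of the same list, read 82.6 and 2.7 on -Fe medium and 12.3 and 26.1 on standard medium. BGLU42, a beta-glucosidase of coumarin release, read 523 and 156 on -Fe medium and 214 and 262 on standard medium. In zone 4 the log2 differences of AT3G12900 and BGLU42 were 7.27 and 4.40, against 0.24 and 0.27 in zone 3. The difference between the zones did not pass for either (limma adjusted p = 0.0909 and 0.0572).

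Other genes rose outside these lists. CDI, named for its induction by cadmium, read 1230 and 1135 on -Fe medium and 135 and 370 on standard medium (2.35 ± 0.40, limma adjusted p = 0.03). ATMPK13, a mitogen-activated protein kinase gene, read 34.1 and 35.4 on -Fe medium and 5.1 and 0.5 on standard medium (2.05 ± 0.38, limma adjusted p = 0.0421). AT2G19410 (3.21 ± 0.58) and AT4G29780 (2.35 ± 0.43) rose as well. All 4 lost their call without either -Fe array, CDI also without standard replicate 1, and ATMPK13, AT2G19410 and AT4G29780 also without standard replicate 2. Without -Fe replicates 1 and 2 in turn, the limma adjusted p was 0.176 and 0.224 for CDI and 0.219 and 0.426 for ATMPK13.

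The genes that fell included enzymes that carry iron. SAPX encodes the ascorbate peroxidase of the plastid stroma, which uses heme to remove hydrogen peroxide, and it read 485 and 351 on -Fe medium and 1512 and 1615 on standard medium (-1.90 ± 0.22, limma adjusted p = 0.00129), and its call held without each zone 3 array. It was the 1 gene of 4 heme enzymes to pass: CYTC-1 read 7767 and 8165 on -Fe medium and 7461 and 7772 on standard medium. SIR, sulfite reductase, which holds siroheme and an iron-sulfur cluster, read 293 and 198 on -Fe medium and 707 and 672 on standard medium (-1.49 ± 0.23, limma adjusted p = 0.0147). SIR was the 1 gene of 4 iron-sulfur enzymes to pass, and its call was lost without -Fe replicate 2 or standard replicate 2 (limma adjusted p = 0.224 and 0.0578). SDH2-1 and SDH2-2, iron-sulfur subunits of succinate dehydrogenase, had differences of -0.57 and -0.57 that did not pass.

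AT3G49160 fell furthest among named genes, with 6.4 and 9.3 on -Fe medium against 243 and 119 on standard medium (-3.52 ± 0.47, limma adjusted p = 0.0039), a call lost without -Fe replicate 1 (limma adjusted p = 0.0623). AT2G36885 read 86.7 and 73.6 on -Fe medium and 494 and 526 on standard medium (-2.56 ± 0.33, limma adjusted p = 0.00346), a call lost without -Fe replicate 2 (limma adjusted p = 0.0569). AT4G36050 read 13.3 and 14.6 on -Fe medium and 72.0 and 60.5 on standard medium (-1.77 ± 0.32), and it lost its call without any one of the 4 arrays.

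A pair of wall-related genes fell in zone 3. AT5G51490, of the pectin methylesterase family, which alters wall pectin, read 5.9 and 4.5 on -Fe medium and 39.5 and 70.4 on standard medium (-2.23 ± 0.36, limma adjusted p = 0.0191). GH9C3, of glycosyl hydrolase family 9, read 1.9 and 3.5 on -Fe medium and 30.0 and 33.9 on standard medium (-1.93 ± 0.31, limma adjusted p = 0.0202). Both were brighter in zone 2 than in zone 4: AT5G51490 read 616 and 738 on -Fe medium and 488 and 348 on standard medium in zone 2, and at most 4.1 on every zone 4 array. GH9C3 read 121 and 201 on -Fe medium and 83.6 and 96.9 on standard medium in zone 2. On standard medium the log2 level in zone 4 minus that in zone 2 was -5.22 for AT5G51490 and -3.15 for GH9C3. Of the 4 zone 3 arrays, leaving out any one but standard replicate 1 lost each call. For AT5G51490 the limma adjusted p was 0.11, 0.223 and 0.096 without -Fe replicate 1, -Fe replicate 2 and standard replicate 2, and for GH9C3 it was 0.164, 0.133 and 0.0716. Without standard replicate 2 their log2 differences were -1.87 and -1.86. Whether position along the root had a part in them was not tested.

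Few members of the other lists and families passed. Among cell wall families, 0 of 11 expansins (median -0.60), 0 of 8 xyloglucan genes (0.11), 1 of 11 glycosyl hydrolase 9 genes (-0.14, GH9C3) and 1 of 15 pectin methylesterases (-0.04, AT5G51490) passed. ATPMEPCRB, also a pectin methylesterase gene, read 2791 and 1248 on -Fe medium and 157 and 32.6 on standard medium. Its difference of 4.53 ± 1.05 did not pass (limma adjusted p = 0.19). None of 41 class III peroxidases (-0.01) or 7 tubulins (0.01) passed. The 8 photosystem and light-harvesting genes had a median of -0.89, and 8 of 8 were below 0 without passing; the median was -0.46 without standard replicate 1 and -1.24 without standard replicate 2. PSAN read 63.8 and 40.6 on -Fe medium and 320 and 230 on standard medium. Of 7 tetrapyrrole genes (-0.36) and 3 iron-sulfur assembly genes (-0.52) none passed. Of 4 mitochondrial stress genes (-0.05) none passed in zone 3: AT5G09570 read 45.9 and 47.3 on -Fe medium and 65.9 and 41.6 on standard medium, and had log2 differences of 3.23 in zone 1 and 2.67 in zone 2. Markers of cell types did not pass either, with medians of 0.13 for 4 root hair genes, -0.22 for 6 elongation genes, -0.13 for 3 meristem genes and 0.14 for 3 cortex genes. The single measured genes of the endodermis (0.45), root cap (0.24), superoxide dismutase (0.48) and ethylene and auxin (-0.22) lists did not pass. Without standard replicates 1 and 2 in turn, medians were -0.23 and -0.30 for expansins and -0.13 and -0.81 for iron-sulfur assembly. They were 0.67 and 0.04 for coumarin genes and -0.28 and 0.29 for tubulins. Each of these medians thus moved when either standard array was left out. The ferritin, stele and non-hair epidermis lists were not analysed here.

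**Figure D3:**
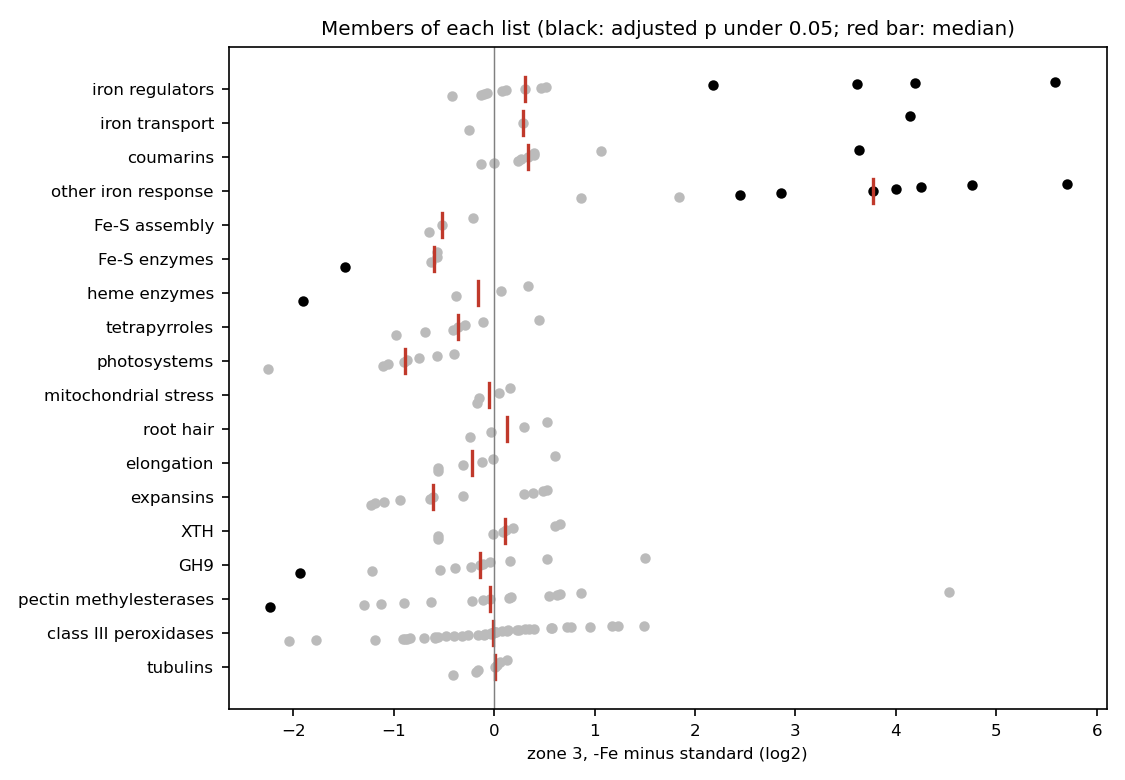
Log2 difference in zone 3, -Fe minus standard, of the measured genes of 18 lists and families; black points have an adjusted p under 0.05, grey points do not, and red bars are medians. The list of other iron-responsive loci has its median at 3.78, and the families of wall genes have medians from -0.60 (expansins) to 0.11 (XTH, the xyloglucan genes).

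Of the 48 probe sets, 41 were also called in the same direction in zone 4, which had 153 calls (0.927%), and 14 in zone 2, which had 17 (0.103%). The zones share no arrays but share the estimate of the spread. AT1G47400 had similar values along the root, with log2 differences of 3.69, 3.82, 4.19 and 3.81 in zones 1 to 4. AT5G05250 had 4.83, 5.11, 5.70 and 5.33, and SAPX had -1.32, -1.58, -1.90 and -2.35. AT1G73120 had 0.27, 0.92, 4.76 and 8.31, and AT5G38820 had 0.69, 0.67, 4.00 and 5.64. Their zone 3 estimates stood between low values in the tip and higher ones in the root hair zone. Neither differed past the threshold from zone 2 or zone 4. For AT1G73120 the limma adjusted p was 0.197 and 0.106, and for AT5G38820 it was 0.0761 and 0.951. BHLH101 had 3.08, 2.68, 5.58 and 6.46.

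The differences between zones were tested directly, and few passed. Against zone 2, 1 of 16505 probe sets passed (0.00606%), and the annotation does not list it. The nearest named gene, AT5G38820, differed by 3.33 ± 0.47 (limma adjusted p = 0.0761). Against zone 4, 2 passed (0.0121%). AT3G06890 had a smaller effect in zone 3, with 440 and 336 on -Fe medium and 58.6 and 69.9 on standard medium, and the zone 3 effect minus the zone 4 effect was -2.81 ± 0.37 (limma adjusted p = 0.0409). The other is not listed in the annotation. Against the mean of the other zones limma called 0, with 583 at an unadjusted p under 0.05. GH9C3 and AT5G51490 came nearest, at -2.22 and -2.59 (limma adjusted p = 0.338 for each). Without standard replicate 1, 15 probe sets passed against zone 2 (0.0909%) and 16 against the mean of the other zones (0.0969%).

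**Figure D4:**
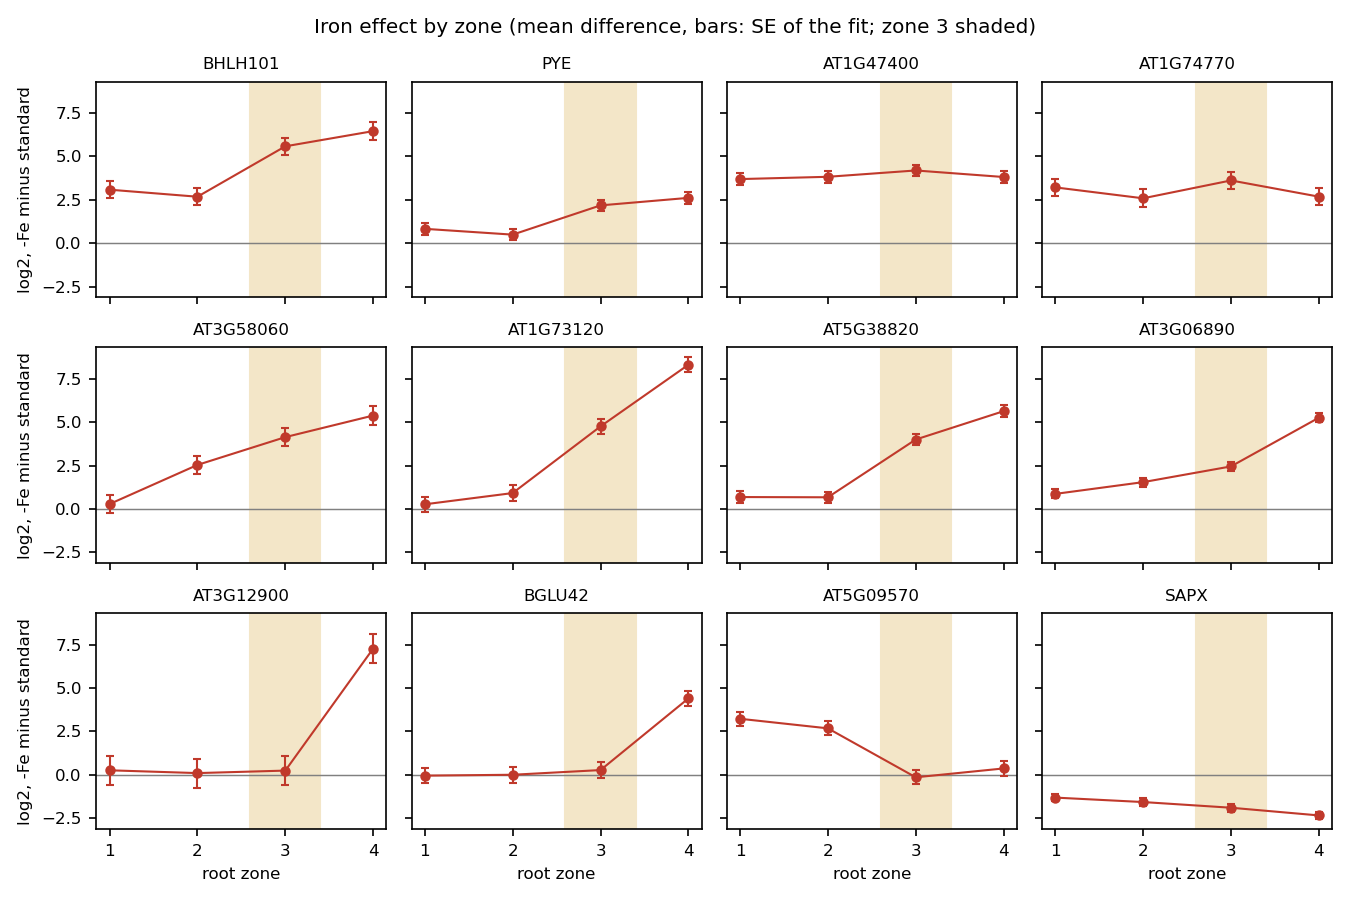
Log2 difference, -Fe minus standard, in root zones 1 to 4 for 12 genes; points are the fitted differences, bars the SE of the fit, and zone 3 is shaded. AT1G47400 stays near 4 in each zone, AT1G73120 reaches 8.31 in zone 4, and BGLU42 and AT3G12900 lie near 0 in zone 3.

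The 85 probe sets called without standard replicate 1 but not with all arrays are described by their level along the root. The 65 higher ones had a median of 3.05 log2 units for zone 4 minus zone 2 on standard medium, and the 20 lower ones a median of -3.87, against -0.08 over all probe sets. The way these probe sets were picked fixes that standard replicate 1 lies above replicate 2 in the 65, and with it much of their level along the root, so these values only describe them. In 31 of the 65 both -Fe arrays lay between the standard arrays, against 4201 of all 16505 tested. AT3G53980 read 886 and 1435 on -Fe medium and 1689 and 51.8 on standard medium. AT4G30450 read 1056 and 1056 on -Fe medium and 1493 and 55.3 on standard medium. CCR2, a cinnamoyl-CoA reductase gene, read 100.5 and 152 on -Fe medium and 112 and 2.5 on standard medium. In these 3 genes both -Fe arrays lay far above standard replicate 2 and near or below replicate 1. On the lower side, AT2G43890 read 33.7 and 43.1 on -Fe medium and 74.3 and 429 on standard medium. Of the 27 probe sets called only without standard replicate 2, the 21 lower ones had a median of 3.37 for zone 4 minus zone 2, and picking them fixes likewise that replicate 1 lies above replicate 2. The 37 probe sets that rose with all arrays had a median of 1.04, with 54.1% over 1 log2 unit against 23.9% of all tested. Standard replicate 1 was above replicate 2 in 28 of the 37, against 9862 of all 16505 tested.

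**Figure D5:**
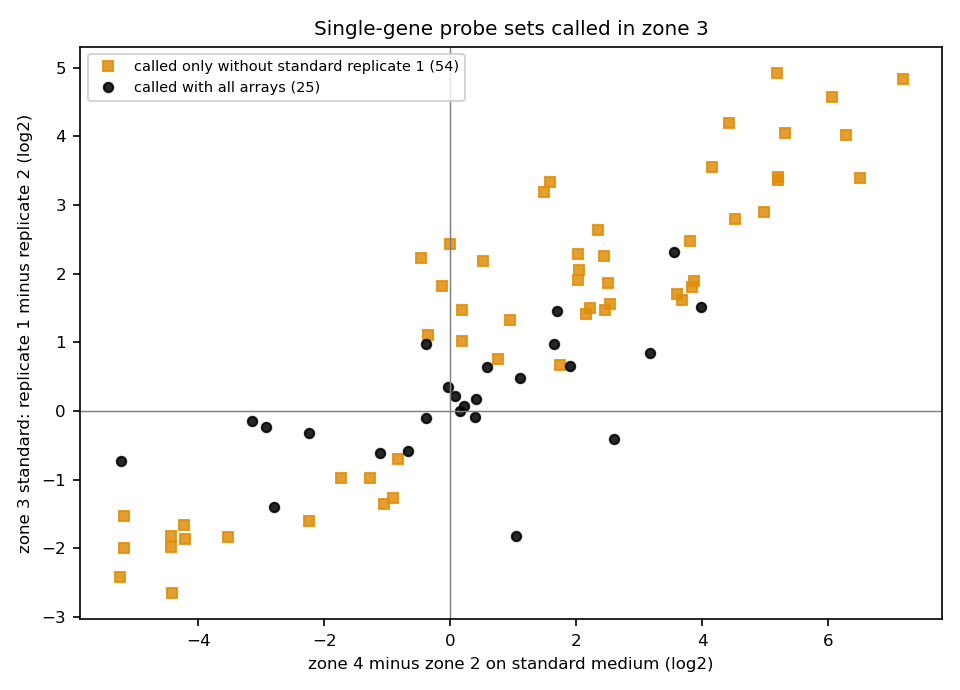
Zone 4 minus zone 2 on standard medium (x axis, log2) against zone 3 standard replicate 1 minus replicate 2 (y axis, log2) for 25 single-gene probe sets called with all arrays (black circles) and 54 called only without standard replicate 1 (orange squares). The orange points lie mostly in the lower left and upper right, which their choice partly fixes.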

How the data were processed

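The deposited values were linear array signal intensities for 22810 probe sets, made by the authors with MAS5 per the submitters' processing notes, with its version not given in the sources used here. Per the labels' protocols, cRNA was prepared with an Affymetrix amplification protocol. The mean between the 2nd and 98th percentiles was 249.88 to 249.90 on each array. After 64 control probe sets were left out, intensities became log2(intensity + 7.73), the offset being their 20th percentile, with no further normalization. A probe set was tested if it exceeded the 40th percentile of the array on 2 or more arrays. limma 3.58.1 in R 4.3.3 fitted 8 group means over 16 arrays (8 residual degrees of freedom) with an intensity trend, two-sided, with Benjamini-Hochberg adjustment over all 16505 probe sets; the fit was tested on simulated data. The number of arrays limits the precision.

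Names came from the platform annotation, updated to RefSeq TAIR10.1: 13513 probe sets had 1 gene, 503 several and 8730 were not listed, and 13436 matched RefSeq. A gene with several probe sets was represented by the brightest in its list. Members and lists were chosen with earlier results of these data known, and the families were redefined by symbol or locus after the annotation was seen. Named were the called single-gene probe sets, the largest differences of each list and family, the largest calls gained without standard replicate 1, the smallest p-values between zones, and BHLH101 and PYE.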

Additional observations from a re-analysis of the deposited data

Results flagged for a closer look

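In 3 cases the effect in zone 3, -Fe minus standard medium, differed from that in a neighbouring zone by a direct test between the zones. A probe set that the annotation does not list had an effect larger by 4.57 ± 0.57 log2 units in zone 3 than in zone 2 (limma adjusted p = 0.0443), with 1042 and 1200 on -Fe medium and 117 and 40.8 on standard medium in zone 3. AT3G06890 had an effect in zone 3 that differed from that in zone 4 by -2.81 ± 0.37 (limma adjusted p = 0.0409), its effects being 2.45 in zone 3 and 5.26 in zone 4. A further unlisted probe set differed between zone 3 and zone 4 by -4.08 ± 0.54 (limma adjusted p = 0.0409), its effects being 0.30 in zone 3 and 4.38 in zone 4.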

How the results depend on the processing

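No called probe set changed direction under any alternative, but most alternatives could not have changed it. Array weights, the filters, the intensity trend, the blocks, the zone 3 arrays alone and arrays left out of other zones leave each zone 3 difference as it was. Only the offset, median centring, quantile normalization and leaving out a zone 3 array alter the difference itself. The 48 calls (37 higher, 11 lower) became 23 (19 and 4) with array weights and 14 (13 and 1) with the zone 3 arrays alone, which have 2 residual degrees of freedom. Median centring gave 7 lower calls, and the zone 3 arrays alone with a replicate block gave 6. Leaving out 1 array at a time gave 23 to 125 calls, 15 to 97 higher and 3 to 28 lower. The single call against zone 2 became 0 with no filter, no intensity trend or the offset halved, and 2 with a replicate block, over all zones or per zone, and 0 to 15 with 1 array left out. The 2 calls against zone 4 became 0 with array weights or the offset halved, 7 with median centring, 5 with no intensity trend or quantile normalization, 12 with the offset doubled, 4 with the stricter filter or a replicate block and 1 with a block per zone, and 0 to 3 with 1 array left out. Against the mean of the other zones, leaving out 1 array gave 0 to 16. The causes of these changes were not tested. Median centring moved the median of all probe sets to 0.09. Same-numbered arrays deviated together, with correlations of 0.37, 0.24, 0.18 and 0.26 in zones 1 to 4, but only 2 pairs exist and the labels do not say what a number marks; the block kept all 48 calls and gave 47 higher and 15 lower, and the block per zone kept 43 of 48 and gave 43 higher and 13 lower. A position covariate, chosen after seeing the data, was the deviation of each array from its group's mean position, so it leaves every difference as it was and changes only the residual spread. It gave 54 calls (42 higher, 12 lower), kept 47 of the 48, and called 5 of the 85 gained without standard replicate 1.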
